A study of Arabidopsis thaliana with 13 samples.

Results

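These are 121 nuclear genes whose transcripts were lower on the first day of a vascular induction culture than in the starting cotyledon, and which then stayed near that lower level for the next 2 days. They were picked from 10984 genes tested. The choice used the values themselves: the mean of the 6 to 24 h arrays (early window) lay at least 1.5 below the 0 h array on a log2 scale, and the means of the 30 to 48 h (middle) and 54 to 72 h (late) arrays each differed from the window before by less than 0.75. Plastid-encoded genes were to be left out, but 0 of them met the other conditions. The early difference and both later steps are therefore given below as a description with no test.

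Arabidopsis thaliana cotyledons of the accession Col-0 were taken from seedlings grown for 6 days in liquid MS medium in continuous light at 22 °C. The induction medium held 3 agents. It had 1.25 mg/L of 2,4-D (a synthetic auxin) and 0.25 mg/L of kinetin (a cytokinin). The third was 10 µM bikinin, a compound that activates the brassinosteroid pathway by inhibiting GSK3-like kinases. In this system, called VISUAL, mesophyll cells of the leaf become vascular cells. The 13 samples, taken every 6 h from 0 to 72 h, were hybridised to 1 array each, so no time point had a replicate and every difference from 0 h rests on the same single array. No culture without the inducers was analysed here, so transfer to culture and the inducers cannot be told apart.

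Levels are log2 values (the base was read from their range) with the median of each array set to 0. Before this centring the first 5 arrays (0 to 24 h) had medians of 5.15 to 5.35 and the 8 later ones medians of 5.82 to 5.99, with 0.67 between the means of both sets. The early difference lies within the first set. The step from the early to the middle window crosses from one set to the other, so there time cannot be told apart from the set. Photosynthesis genes were high at the start, as the leaf label asks: the 7 measured ones stood between the 79.9th and 99.5th percentile of the genes tested at 0 h. Whether a lower level meant less RNA per cell or fewer cells of a type cannot be told apart in these whole cotyledons.

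Plant cells sense microbes through receptor kinases at their surface. A bound receptor activates cytoplasmic kinases, which lead to new transcription through WRKY factors, while ubiquitin ligases such as the PUB proteins turn the signal down again. Plants of the mustard family also keep a constitutive chemical defence in ER bodies, compartments budded from the endoplasmic reticulum and filled with beta-glucosidases, whose partners include jacalin-related lectins. Of the 121 members, 17 had a symbol in the annotation (TAIR10.1), and 3 were not matched there. Among the 17 were 4 genes of immune signalling and 3 of the ER body and its lectins. The others are given by locus tag with no role.

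For most members the difference was already large in the first array after 0 h. The early window lay 3.44-fold below 0 h in the median member, at least 4-fold below in 39 and at least 8-fold below in 11. Over all genes tested, 2.41% lay at least 1.5 below 0 h and 1.1% met every condition, figures that the choice itself fixes. In the 6 h array the median member was already at -1.52 from 0 h, against -0.01 for the median of all genes. By then 79 members had reached at least 75% of their early difference, and 8 had reached under 50%. The 6 h array is part of the early mean that the rule used. These 6 h figures are therefore in part fixed by the choice. The members' median difference from 0 h was -1.82 at 12 h, -1.99 at 18 h and -2.02 at 24 h. The median over all genes also went down, to -0.06, -0.12 and -0.15 in these arrays. From 30 to 72 h the members' median kept to the range of -2.32 to -2.10, and that of all genes to -0.30 to -0.15. Of all genes, 4.12% lay at least 1 below 0 h at 6 h and 23.8% at 48 h. In each of the 121 genes, every one of the 12 later arrays lay below the 0 h array, and in 90 genes each of them lay at least 1 below it. The rule puts all 3 window means below 0 h, so both counts are in large part fixed by the choice. They were not counted over all genes tested.

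**Figure D1:**
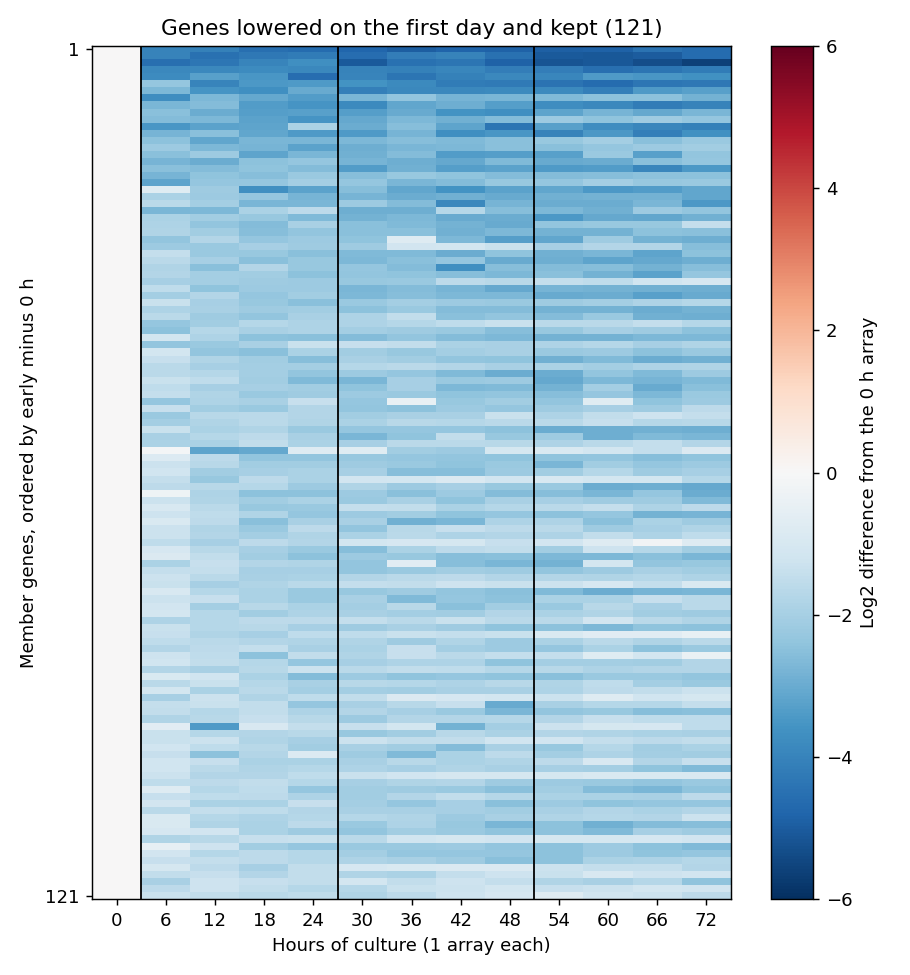
Log2 difference from the 0 h array (colour, blue for lower) of the 121 member genes (rows, ordered by early window minus 0 h) in the 13 arrays (columns, hours of culture; black lines part 0 h and the 3 windows). Every later array is below 0 h in each row, which the choice of members in large part fixes. In the 6 h array 8 genes had reached under 50% of their early difference.

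Among immune signalling genes, the receptor, a kinase beneath it, a WRKY factor and a ubiquitin ligase were all members. EFR, the receptor kinase that binds the bacterial elongation factor EF-Tu, read 0.72 at 0 h, then -0.59, -1.11, -1.49 and -0.87 across the early window. Its late arrays read -0.89, -1.41, -1.26 and -1.11, 3.69-fold below 0 h. EFR was above the array median at 0 h alone.

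BIK1, the cytoplasmic kinase that receptors such as EFR activate, was among the 5 brightest members at 0 h, at 5.04. Its 4 early arrays read 2.70, 2.95, 3.32 and 3.17, a level 4-fold lower, and its late arrays 3.40, 3.42, 3.61 and 3.34. The lowest of its 13 arrays was that of 6 h. BIK1 therefore remained well above the array median throughout.

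WRKY22, a transcription factor gene of the same pathway, had the largest difference of these 4, 9.22-fold. It went from 1.70 at 0 h to -2.04 at 6 h, then read -0.97, -1.35 and -1.65 in the other early arrays. The middle window was at -0.95 ± 0.18 (SD, n = 4) and the late one at -0.90 ± 0.19 (SD, n = 4). With dim values floored at the 40th percentile of all values its early difference was -2.53 in place of -3.21.

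PUB22, a U-box ubiquitin ligase that dampens immune signalling, went from 1.88 at 0 h to -0.47, 0.13, -0.43 and -0.31 in the early arrays, 4.44-fold lower. Its middle arrays were uneven, at -0.54, 1.13, -0.82 and -1.41, so that the 36 h array came within 1 of the 0 h level. The late arrays read -1.22, -0.26, -0.95 and -1.05.

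A list of 25 genes of pattern-triggered immunity was written after these values were seen, and 8 of its genes were tested. Of the 8, 7 were lower in the early window than at 0 h, as were 57.5% of all genes tested, and their median early difference was -1.86. As 4 of the 8 are members, chosen for this difference, the count and the median say nothing of the pathway as a whole. Close relatives differed. Of 7 tested genes with a WRKY symbol, 2 were below 0 h in the early window, and the median was 0.53. WRKY29, a factor that acts beside WRKY22, lay 6.92-fold below 0 h in the early window, but its mean went on from 0.33 in that window to -0.67 in the middle one, which kept it out. PUB23, a close relative of PUB22, lay 2.48-fold below and missed the threshold. PUB24, the third of that trio, was at 1.67 at 0 h and 2.05 in the early window. Of 7 tested genes with a PUB symbol, 4 were below 0 h.

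**Figure D2:**
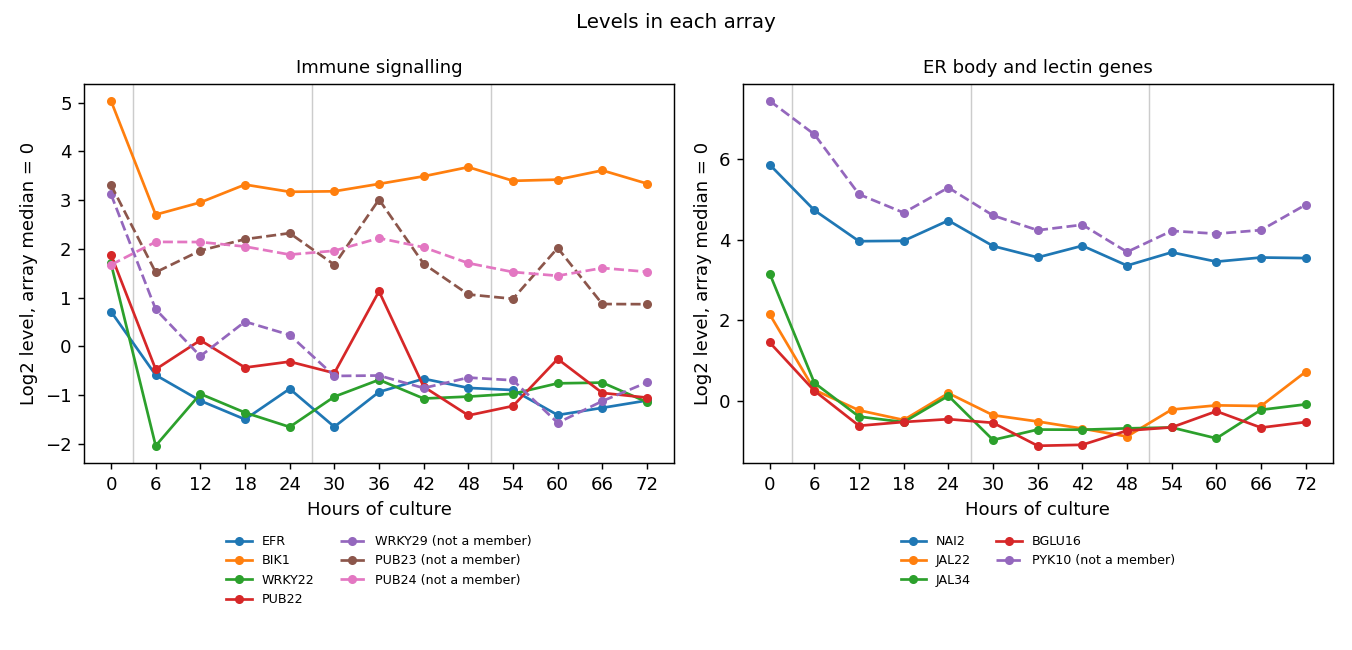
Log2 level (array median = 0) in each of the 13 arrays against hours of culture for immune signalling genes (left) and for ER body and lectin genes (right). Solid lines are members, dashed lines are not, and grey lines part 0 h and the 3 windows. BGLU16, on the right, is drawn as a family relative of PYK10 and was not on the ER body list. EFR, BIK1, WRKY22 and PUB22 stand highest at 0 h, which their choice as members in large part fixes, and PUB24 does not.

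Members from the ER body were NAI2 and a pair of lectin genes. NAI2, which encodes the protein that forms these compartments, was the brightest member at 0 h, at 5.85. It read 4.72, 3.96, 3.97 and 4.47 in the early arrays, 2.98-fold lower, and 3.68, 3.45, 3.55 and 3.54 in the late ones, 4.92-fold below 0 h. NAI2 stayed bright even so.

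The jacalin-related lectin genes JAL34 and JAL22 were the 2 tested genes with a JAL symbol, and both were members. JAL34 went from 3.16 to 0.45 at 6 h and to -0.39, -0.52 and 0.13 in the other early arrays, 9.45-fold lower. JAL22 went from 2.15 to 0.27, -0.23, -0.47 and 0.19, 4.61-fold lower, and its 72 h array, at 0.72, was the highest after 0 h. The annotation places JAL34 in overlap with JR1, and the position of its probes in that overlap was not analysed here. PYK10, the main beta-glucosidase of ER bodies, was not a member. It lay 4.05-fold below 0 h in the early window but lower again by -1.20 in the middle one. Of 18 genes of the ER body and its lectin complex, listed after the values were seen, these 4 were tested. The 3 members lie at least 1.5 below 0 h by their choice.

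BGLU16, from the beta-glucosidase family that also holds PYK10, stood at 1.45 at 0 h and at 0.25, -0.62, -0.52 and -0.45 in the early arrays, 3.44-fold lower. It was the 1 member among 13 tested genes with a BGLU symbol, whose median early difference was 0.74.

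In secondary metabolism, UGT85A2, a UDP-glucosyl transferase gene, lay 9.69-fold below its 0 h level of 3.54. It read 1.21 at 6 h and -0.40, 0.11 and 0.13 in the other early arrays. Its mean was lower again in the middle window, at -0.42, and in the late one, at -0.87, 21.3-fold below 0 h. Of 35 tested genes with a UGT symbol it was the 1 member, and 14 were below 0 h. CCR2, a cinnamoyl-CoA reductase gene of the lignin precursor pathway, went from 2.85 to 0.06, -0.11, 0.39 and 0.53, 6.21-fold lower, and its late window was still at 0.13 ± 0.34 (SD, n = 4). The annotation has CCR2 in overlap with NRAMP1. DLAH, which encodes a DAD1-like acylhydrolase, lay 4.32-fold lower and ATGSTF13, a glutathione transferase gene, 3.44-fold lower. With the floor at the 40th percentile DLAH had an early difference of -1.58 in place of -2.11. Its middle and late means were -1.87 and -2.02, and it passed the filter on mean level only through its 0 h array.

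Some members act in energy and sugar use. AKINBETA1, a regulatory subunit of the energy-sensing kinase SnRK1, stood at 3.46 at 0 h and at 2.37, 1.57, 1.86 and 1.45 in the early arrays, 3.14-fold lower. Its late arrays, at 1.60, 1.87, 2.00 and 2.17, lay 2.94-fold below 0 h. SWEET17, a fructose transporter gene of the vacuole that is named here outside the rule for named genes, lay 2.92-fold below 0 h in the early and 6.14-fold below in the late window. The 6 tested genes with a SWEET symbol ranged from -2.00 to 5.03 in early difference, and 4 were below 0 h. SDH1-2, a succinate dehydrogenase subunit gene, and AT4G33160 were the members closest to the threshold, at -1.5 and -1.51. AT4G29780 and AT5G18600 lay just outside, at -1.5 after rounding and at -1.49. SDH1-2 was the 1 of 4 tested genes with an SDH symbol that was below 0 h, and their median was 0.30.

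The largest early differences were those of AT3G22750 (19.7-fold), AT5G39580 (19-fold), AT1G35350 (17.4-fold), AT2G43140 (14.2-fold) and AT4G36850 (13.6-fold), none of which has a symbol in the annotation. AT3G22750 went from 3.98 to -0.03, -0.08, -0.54 and -0.63 in the early arrays, and its late arrays lay between -0.89 and -0.43. AT1G35350, from the phosphate starvation list, went from 4.42 to -0.10 at 6 h and 0.77 at 24 h, and then to -0.88 ± 0.23 (SD, n = 4) in the late window, 39.5-fold below 0 h. AT2G43140 was nearly flat after the first step, with an early SD of 0.05 around -1.55. That is close to the level of -1.61 under which probe sets were left out. Its middle and late means, -1.74 and -2.02, lay below that level, and it passed the filter only through its 0 h array. With the floor at the 40th percentile its early difference was -3.11 in place of -3.83. AT2G17740 and AT3G56360 lay 8.38-fold and 8.06-fold lower. Among the brightest at 0 h, AT2G39670 started from 5.09 and AT2G21080 from 4.72, and they lay 3.44-fold and 2.97-fold lower. AT2G39670 is the next protein-coding gene to BIK1 on chromosome 2 and the annotation shows no overlap between them. No other pair of members lay side by side or with 1 protein-coding gene between them.

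Whether members went on falling during the first day was tested by the slope within the window, which the rule did not use directly. The rule still bears on it: genes that kept falling to 24 h tend to have a middle mean below their early mean, and the condition on that step leaves many of them out. The members' share of calls is therefore shaped by their choice and is not read against that of all genes. In limma, with a mean and a linear slope for each window fitted over all 13 arrays, 17 of 121 members (14%) fell further between 6 and 24 h and 1 rose, at a Benjamini-Hochberg adjusted p under 0.05 over all genes and a change of at least 1 across the window. Over all genes tested 5.92% fell and 4.48% rose, 10.4% in all. At an unadjusted p under 0.05, 44 members went down and 9 up, and 33.7% of all genes passed in either direction. The median change across the window was -0.49 in members and -0.15 over all genes. The falling share of all calls follows the scaling: it was 56.9% here, 47.6% after quantile normalization, 41.9% when arrays were centred by their named probe sets and 37.9% with no centring. Among members 16, 12 and 11 of 20, 16 and 15 calls were falls under those 3. Without the 6 h array 9 members were called, 6 of them among the 18, and with the 5 arrays of 0 to 24 h alone 3 were. The main fit took 1 spread per gene from all windows and both array sets, so early calls rest in part on the scatter of later arrays. Whether the scatter about the slope was alike in the windows was not tested.

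AT4G26370 fell most within the day. It read 3.78 at 0 h, 3.06 at 6 h, 1.64 at 12 h, 0.12 at 18 h and 0.56 at 24 h, a change of -2.71 ± 0.52 (SE) from 6 to 24 h (limma adjusted p = 0.00615). AT4G27300 read 1.41, 1.14, -0.46, -1.05 and -1.07 in the same arrays (change -2.17 ± 0.44 SE, limma adjusted p = 0.00834). In both, most of the step lay after 6 h. The calls of both ended without the 6 h array, with changes of -1.63 and -0.91 (limma adjusted p = 0.186 and 0.29), and with the first 5 arrays alone. AT4G37920 fell by 1.90 (limma adjusted p = 0.00052) and AT5G64380 fell by 1.72 (limma adjusted p = 0.000609), and both of these calls held in each alternative run. AT2G39670 fell by 1.64 (limma adjusted p = 0.000811), a call that ended with the first 5 arrays alone (limma adjusted p = 0.0691). AT4G23820, named here outside the rule, was the 1 member that rose, from 1.01 at 6 h to 2.05 at 24 h after 3.38 at 0 h.

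EFR, BIK1, WRKY22, PUB22, NAI2, JAL22, JAL34 and BGLU16 were not called within the first day. Their changes from 6 to 24 h lay between -0.61 (BGLU16) and 0.53 (BIK1), with limma adjusted p between 0.0522 and 0.986. AKINBETA1 changed by -0.74 with a limma adjusted p of 0.0493, under the size required.

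**Figure D3:**
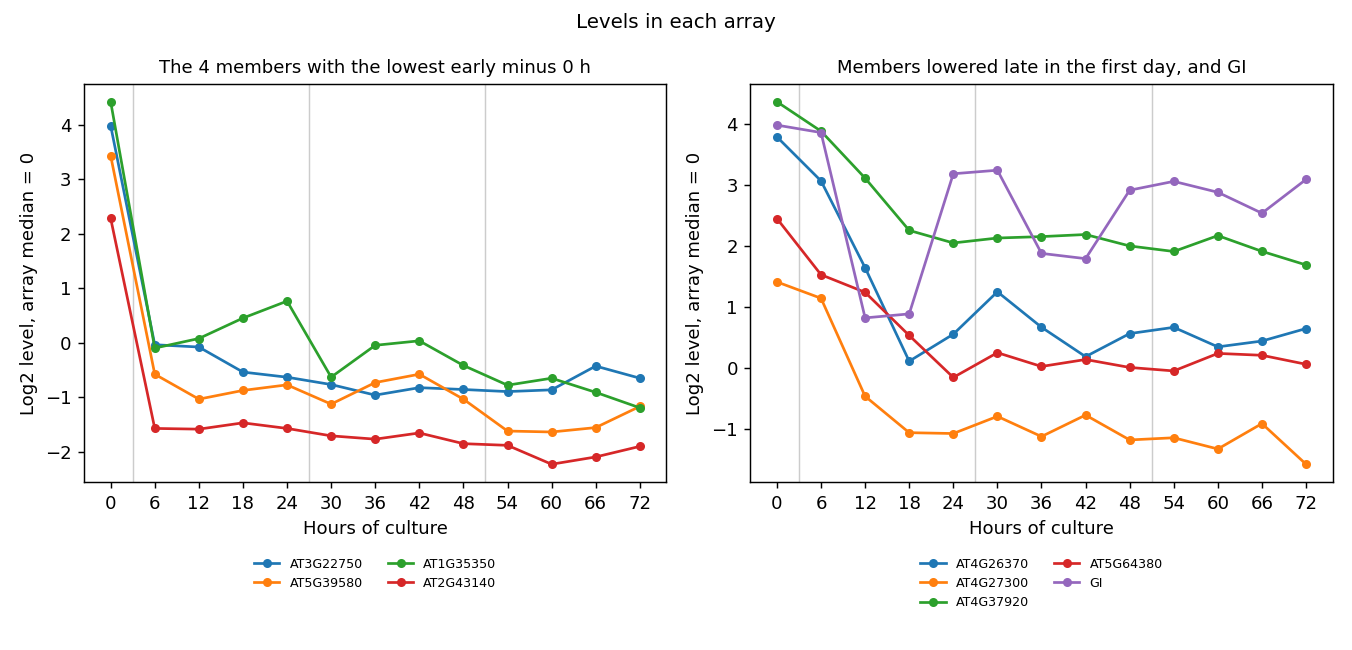
Log2 level (array median = 0) in each of the 13 arrays against hours of culture for the 4 members with the lowest early minus 0 h (left) and for 4 members that fell within the first day and GI (right); grey lines part 0 h and the 3 windows. On the left the 6 h array already lies far below 0 h, while on the right AT4G27300 and AT4G37920 had reached 15.1 and 31.3% of their early difference there.

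**Figure D4:**
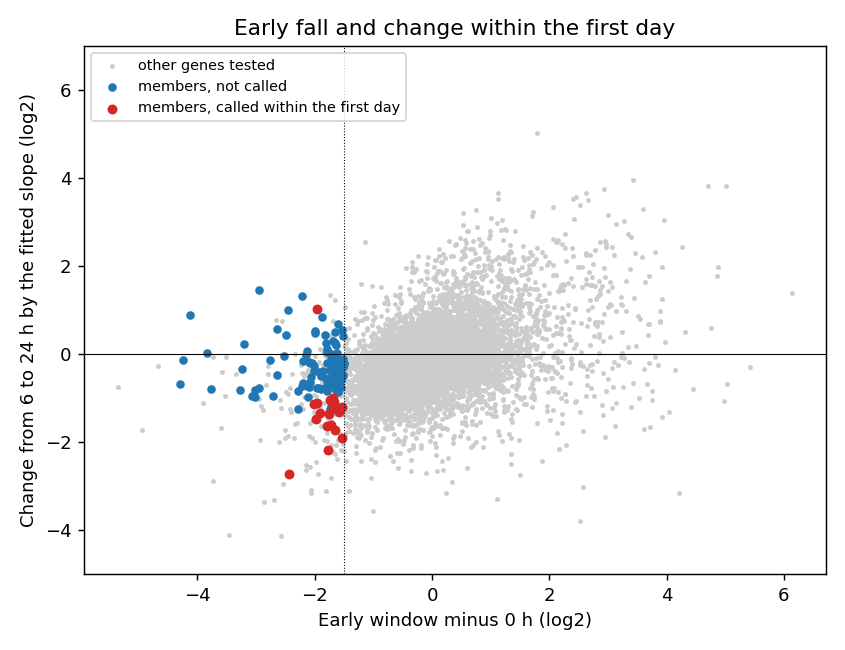
Change from 6 to 24 h by the fitted slope (vertical, log2) against early window minus 0 h (horizontal, log2) for each gene tested; grey points are other genes, blue points members not called and red points the 18 members called, and the dotted line is the threshold of -1.5. Of the red points 17 lie below 0 and 1 above.

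After the first day no member was called for a slope within a window. In the middle window 0 of 121 members and 1.84% of all genes tested were called by slope. The rule bounds the steps into and out of this window, so the members' count is not read against that share. At an unadjusted p under 0.05 stood 16 members and 19.3% of all genes. SDH1-2 and TRM26, the latter named outside the rule, had limma adjusted p of 0.0383 and 0.0447 there, with changes of 0.84 and -0.97 that stayed under the size required. In the late window 0 members and 0% of all genes were called, with 13 members and 1028 genes (9.36%) at an unadjusted p under 0.05. The median SD within a window was 0.37, 0.21 and 0.21 for members in the early, middle and late window, and 0.23, 0.16 and 0.14 for all genes. From the early to the middle window 91 members stood lower, with a median of -0.34 against -0.25 over all genes, but with no centring the members' median step was 0.33. From the middle to the late window 66 members stood lower, with a median of -0.04 against 0.04 over all genes. The rule bounds both steps in members, and the shares of all genes that stood lower were not counted.

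GI met the rule without following the pattern. It encodes GIGANTEA, a clock and flowering-time protein. It read 3.97 at 0 h and 3.85 at 6 h, then 0.82 at 12 h, 0.89 at 18 h and 3.18 at 24 h. The middle arrays were at 3.24, 1.88, 1.79 and 2.91, and the late ones at 3.05, 2.88, 2.53 and 3.09. Its low arrays were thus those of 12, 18, 36 and 42 h, and its early mean combines arrays near the starting level with arrays far below it. A 24 h rhythm, tested in limma beside the window means over the 12 arrays after 0 h, gave GI the largest amplitude of the members, 1.02, with a limma adjusted p of 0.166. In that test 0 members and 0% of all genes were called, with 18 members and 1516 genes (13.8%) at an unadjusted p under 0.05.

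Of 265 genes at least 1.5 below 0 h in the early window, the 121 members were as many as the 121 that lay lower again by at least 0.75 in the middle window. Another 5 were higher again by that much, and 18 changed only in the late window. The members had started lower than those that were lowered again, at a median 0 h level of 1.85 against 3.56. Within the first day 17 members (14%) and 67 of the genes lowered again (55.4%) fell in limma. These classes are parted by the step from the early to the middle mean, which a fall within the early window itself lowers, so the difference between the shares is in large part built in and was not tested.

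The gene lists drawn up for this tissue and treatment covered little of the array. Of 280 genes in 22 lists, 29 in 10 lists were tested and 3 were members: GI of the clock list, AKINBETA1 of the sugar-repressed list and AT1G35350 of the phosphate starvation list. Of 7 photosynthesis genes 0 were members. All 7 lay below 0 h in the early window, as did 57.5% of all genes tested, with a median of -1.01. LHCB4.2 and PSAN passed the threshold there, at -2.15 and -1.90. All 7 lay lower again in the middle window, with steps of -2.37 (PRK) to -0.86 (PSBY), which kept LHCB4.2 and PSAN out. Of 2 stomatal lineage genes tested 0 were members. The lists without a tested gene included those for guard cells, epidermis and cuticle, xylem and phloem, brassinosteroid synthesis and salicylate.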

How the data were processed

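The authors deposited 1 table of 38408 probe sets in 13 arrays, and the deposited values were taken as log2 because of their range. GCOS is named in the submitters' processing notes. For background correction, summary, normalization and log base, the sources used here give no method. The number of arrays limits the precision. The platform annotation gave 1 gene to 16722 probe sets, of which 16574 matched TAIR10.1 by gene identifier, several to 759 and none to 20927. Arrays were centred on their medians, the 30% lowest probe sets by mean level were dropped, and the probe set with the highest mean was kept per gene. The members and lists were chosen with earlier results of these data known.

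limma 3.58.1 in R 4.3.3 was used with an intensity trend. The slope fit left 6 residual degrees of freedom, and the rhythm fit 7. As no time point had a replicate, the spread comes from departures from these curves. Steps were tested on simulated data. Named were the 10 lowest members by early minus 0 h, the 5 brightest at 0 h, up to 3 per list, up to 4 called per test, those next to the threshold and up to 12 with a symbol. Families by gene description were not analysed here. Alternatives were other scalings, floors and filters, averaging probe sets per gene, further models and eBayes settings, and leaving out each array. Plots were made in Python 3.11.15 (matplotlib 3.10.9).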

Additional observations from a re-analysis of the deposited data

Results flagged for a closer look

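Among 87 sets of 4 window values of the 29 named members, 4 held an array far from the other 3 by Dixon's criterion for 4 values, about as many as chance gives at 1 in 20. AT2G43140 stood at -1.47 at 18 h, with the other early arrays between -1.58 and -1.57. JAL34 stood at -0.97 at 30 h, with the other middle arrays between -0.71 and -0.68. WRKY22 stood at -0.68 at 36 h, with the other middle arrays between -1.07 and -1.03. JAL22 stood at 0.72 at 72 h, with the other late arrays between -0.21 and -0.11.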

How the results depend on the processing

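The early difference of the members kept its sign under each scaling, filter and floor and without any single array after 0 h, although the choice of members fixes that direction in the main setting. Which genes counted as members was less settled. The rule gave 51 genes with the lowest 50% of probe sets left out, where 51 of the 121 were still tested, and between 103 and 176 without a single array, 176 of them without that of 6 h. It gave 126 on the values as deposited, 79 of them shared with the 121, and 108 with centring on named probe sets, 94 of them shared. With the floor at the 40th percentile 96 of the 121 still met the rule, and the smallest early difference among the 121 was -0.42. Members with an early slope numbered 11 with the lowest 50% left out, 3 with the 5 arrays of 0 to 24 h alone, and 9 to 20 without a single array. Members with a middle slope numbered 0 to 1 without a single array, and late slopes and rhythms 0 in every alternative. Over all genes, early slopes numbered 161 with 1 array set alone and 1061 to 1319 without a single array, against 1142. Middle slopes, 202 in the main setting, numbered 133 as deposited, 110 with centring on named probe sets, 75 with the floor at the 40th percentile, 0 by the last minus the first array, 377 with 1 set alone and 0 (without 30 h) to 385 (without 24 h) without a single array. Late slopes numbered 16 with the floor at the 40th percentile, 7 with 1 set alone and 0 to 10 without a single array. Rhythms numbered 3 with no centring and likewise when centred by named probe sets, 2 without a filter, with the lowest 50% left out, with the mean of probe sets and with robust eBayes, 8 with linear and quadratic time, and 0 to 1 without a single array. Early differences of the 29 named members were recomputed 563 times, of which 557 moved by less than the early SD, 6 by more and 0 changed sign. Many of these runs could not move the value, as middle and late arrays and the filter do not enter it. The 557 is therefore not read as a measure of stability. The rule needs the 0 h array, so it could not be left out there. No paired analysis was possible because no time point has a replicate. The late mean lay below the array median in 60.3% of members and 29.8% of all genes tested. Signal over background was not given, so how far dim members had reached background is unknown.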

Other observations

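A few members rose towards the 0 h level in the 36 h array, and some of them again in that of 60 h. AT2G27080 lay 1.70 above its median of the 12 later arrays at 36 h and 1.40 above it at 60 h, and AT1G18740 lay 1.42 and 0.98 above. PUB22 lay 1.64 above at 36 h and 0.25 above at 60 h. At 12 h AT2G27080, AT1G18740 and PUB22 lay 0.26, 0.70 and 0.63 above, which was more than at 60 h for PUB22. PUB23, its relative outside the members, read 3.01 at 36 h and 2.02 at 60 h, against 1.68 at 30 h and 0.98 at 54 h. These genes were picked after their values were seen, and limma gave AT2G27080, AT1G18740 and PUB22 rhythm p-values of 0.248, 0.0325 and 0.0193 unadjusted, with adjusted p of 0.611, 0.315 and 0.267. In all, 7 members had their highest value after 0 h in the 36 h array and 9 in the 60 h array, while 61 had it in the 6 h array. This was not counted over all genes tested, so these counts are not read as a trait of the members.

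The members were spread over the 5 chromosomes much as all genes tested. Chromosome 1 held 23.1% of them and 25.7% of the genes tested, and chromosome 2 held 19.0% and 14.8%. Of the members, 28 overlap another protein-coding gene in the annotation, and the part of their probes in the overlaps was not analysed here. The share of such overlaps over all genes tested was not counted, so 28 is not read as high or low. A second probe set existed for 1 member, AT1G69570, and gave an early difference of -0.48, against -2.22 for the brighter one used.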
